A study of Arabidopsis thaliana with 6 samples.

Results

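The genes described here encode 10 proteases that cut or break down seed storage proteins, or that are close relatives of such enzymes, in germinating seeds of Arabidopsis thaliana. They were chosen by locus identifier, and all 10 were found among the 33602 loci of the deposited table. They are the 4 vacuolar processing enzymes (alpha, beta, gamma and delta VPE), the papain-like cysteine proteases RD21A, RD19A, aleurain (AALP), CP1 and CEP1, and the aspartic protease ASPG1. Poly(A) RNA was sequenced from 3 wild-type (Col-0) and 3 scl30a-1 libraries, described by the submitters as biological triplicates. In each, 50 mg of seeds were held in the cold (4 degrees Celsius) for 3 days and then kept at 21 degrees Celsius in continuous white light until collection at 18 h. Both genotypes are in the Columbia background. The scl30a-1 line carries a mutant allele of SCL30a, which encodes a serine/arginine-rich splicing factor, and it was the only allele examined. The labels give no batch or seed lot, so an effect of these and one of genotype cannot be told apart. Libraries carry the letters a, b and c of their columns, and values per library are given in that order.

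Cruciferins and 2S albumins are made during seed maturation as precursors that travel to the protein storage vacuole. There the vacuolar processing enzymes, which are cysteine proteases that cut after asparagine, turn the precursors into mature chains. After imbibition, papain-like cysteine proteases and aspartic proteases break the mature proteins down, which feeds the seedling with amino acids. Beta VPE is the main processing enzyme of the seed. Alpha and gamma VPE are best known from vegetative organs, and delta VPE from the seed coat of developing seeds.

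The total count per library ran from 70687361 to 85605647 and overlapped between genotypes. SCL30a (AT3G13570) had 6890 to 8425 counts in the wild-type libraries and 440 to 478 in the scl30a-1 libraries, so each library carried the level its label called for. Embryo marker genes were all detected (7 of 7 tested). By the test described further on, 1 of them (STM) was called higher and 2 (SHR and ATML1) lower. These calls are near the share of all genes tested that were called, which was 41.7%. Their summed level was 325 to 339 CPM for wild-type libraries, against 304 to 318 for scl30a-1 libraries. Most of this sum was ATML1, with means of 222 and 194 CPM. The median log2 fold change of the 7 was 0.05, so the lower sum does not show a fall of these markers as a set. CPM are counts per 1000000 counts of a library, with library sizes scaled by the TMM method of edgeR. The seed coat markers BAN and TT10 had a count of 0 in all libraries, and MUM4, of whose 36-base words 56.36% occur in other genes, had 1558 to 1930 counts. A count of 0 allows a level of up to 3 counts, which was 0.0345 to 0.0420 CPM. The endosperm markers EPR1 and MAN7 were detected (2 of 3), whereas ZOU had at most 2 counts in any library.

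The 300 bases in front of the annotated start of 4 of the genes are shown, since these 4 windows hold the letters of seed regulatory motifs. Sequences are from the RefSeq TAIR10.1 assembly and read 5′ to 3′ toward the gene. Capitals mark ACGTG or its reverse complement CACGT, the core of the abscisic acid response element, and CATGCA or its reverse complement TGCATG, the RY motif bound by B3 factors in seeds.
Beta VPE (chr1:23226984-23227283, minus strand): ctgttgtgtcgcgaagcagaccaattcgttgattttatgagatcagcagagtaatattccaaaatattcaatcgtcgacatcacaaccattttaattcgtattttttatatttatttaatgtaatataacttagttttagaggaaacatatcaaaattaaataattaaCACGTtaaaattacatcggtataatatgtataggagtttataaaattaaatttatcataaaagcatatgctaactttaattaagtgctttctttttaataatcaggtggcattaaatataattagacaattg
CEP1 (chr5:20455017-20455316, plus strand): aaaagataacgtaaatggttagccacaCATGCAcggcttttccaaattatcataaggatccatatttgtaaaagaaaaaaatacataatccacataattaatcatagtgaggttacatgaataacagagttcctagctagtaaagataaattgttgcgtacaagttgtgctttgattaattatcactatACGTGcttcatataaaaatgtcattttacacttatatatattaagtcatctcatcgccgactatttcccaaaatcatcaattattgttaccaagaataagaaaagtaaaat
Delta VPE (chr3:7052047-7052346, plus strand): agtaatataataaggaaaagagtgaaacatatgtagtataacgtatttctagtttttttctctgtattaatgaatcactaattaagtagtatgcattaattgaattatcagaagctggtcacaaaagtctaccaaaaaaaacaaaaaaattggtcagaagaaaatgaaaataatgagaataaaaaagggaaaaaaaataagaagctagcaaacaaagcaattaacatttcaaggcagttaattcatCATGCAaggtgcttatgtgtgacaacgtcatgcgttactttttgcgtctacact
CP1 (chr4:17376280-17376579, minus strand): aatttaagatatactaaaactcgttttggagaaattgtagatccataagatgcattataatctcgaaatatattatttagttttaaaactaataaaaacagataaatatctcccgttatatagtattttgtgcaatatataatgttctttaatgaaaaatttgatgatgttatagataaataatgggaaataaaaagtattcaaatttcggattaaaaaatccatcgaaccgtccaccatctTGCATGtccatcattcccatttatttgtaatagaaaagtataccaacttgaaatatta
ACGTG was found on either strand in 2 of the 10 windows, at 132 bases before the start of beta VPE and 111 bases before that of CEP1. Among 27443 windows of protein-coding genes, 25.6% held it. CATGCA was found in 3 of the 10 windows, at 54 bases before delta VPE, 58 before CP1 and 273 before CEP1, and in 10.3% of all windows. Also searched on both strands was TAACAAA (reverse complement TTTGTTA), the gibberellin response element. It was present only in the window of ASPG1, at 108 bases, and in 19.2% of all windows. The marked matches do not overlap each other. These matches describe letters only, and binding was not measured.

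The transcripts of the 10 proteases did not move together between the genotypes. Beta VPE, alpha VPE, ASPG1 and CEP1 were higher in scl30a-1, RD21A, RD19A and AALP were lower, and gamma VPE, delta VPE and CP1 were not called. A gene was called at an adjusted p under 0.05 in edgeR's quasi-likelihood test, with Benjamini-Hochberg adjustment over all 18736 genes tested. The 7 calls among 10 stand against 41.7% of all genes tested, of which 21.9% were higher and 19.7% lower in scl30a-1. Without composition scaling the split of all called genes turned from 4106 higher and 3700 lower to 3119 and 4589, and with upper-quartile scaling to 2961 and 5258. The median log2 fold change of the 10 was -0.05, and that of all genes tested was 0.0027. CEP1 passed the filter on low counts only through its scl30a-1 libraries, so its inclusion favoured a rise. The libraries of the genotypes did not overlap for 6 of the 10, and for 52.1% of all genes tested. With a fold change of at least 1.5 as well, 3 of the 10 were called (beta VPE, alpha VPE and CEP1, all higher), against 12.2% of all genes tested.

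**Figure D1:**
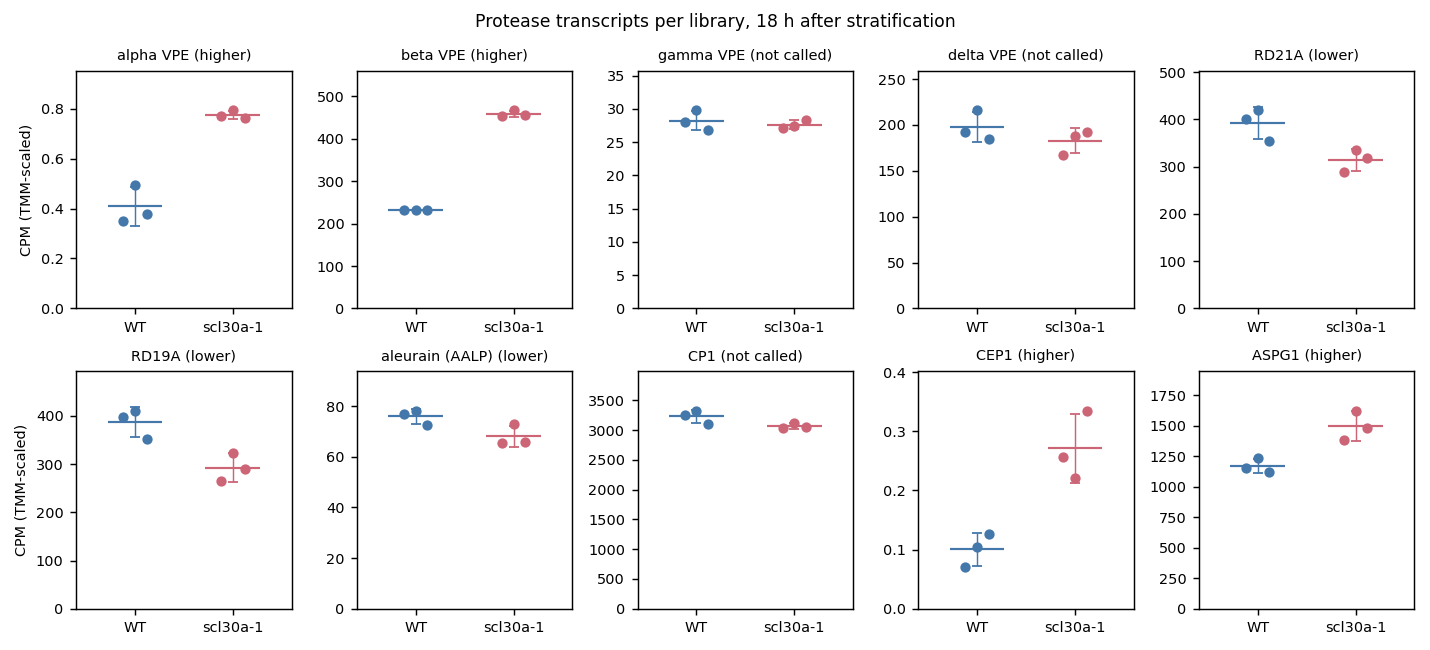
TMM-scaled CPM of each protease transcript in 3 wild-type and 3 scl30a-1 libraries. Points are libraries, horizontal lines are means, vertical bars are SD, and each panel starts at 0 and has its own scale. The beta VPE libraries lie between 232 and 233 CPM in the wild type and between 452 and 467 CPM in scl30a-1.

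Beta VPE (AT1G62710; chromosome 1, 23223874 to 23226983, minus strand, 9 exons) stood out by its precision. Its libraries held 16554, 17853 and 20208 counts in the wild type, against 38670, 35915 and 35404 in the mutant. These correspond to 232, 233 and 232 CPM in the wild type and to 452, 467 and 456 CPM in scl30a-1. Every mutant library stood far above every wild-type library. The mean rose from 232 ± 0.656 to 459 ± 7.59 CPM (SD, n = 3 each), a log2 fold change of 0.98 (edgeR, SE 0.0457, adjusted p = 1.32e-07). None of its 36-base words occurs in another annotated transcript, and no annotated gene overlaps it.

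The 2 endosperm markers tested were both called higher in scl30a-1, against 21.9% of all genes tested. EPR1, an extensin-like cell wall protein of the endosperm, rose from 228 ± 40.9 to 724 ± 78.3 CPM (edgeR adjusted p = 3.81e-06). MAN7, an endo-beta-mannanase, rose from 125 ± 3.93 to 179 ± 12.7 CPM (edgeR adjusted p = 9.16e-05). ZOU was at 0 in all libraries but one, and most of the summed level of the 3 markers was EPR1. This sum was 319 to 393 CPM in the wild type and 837 to 968 CPM in scl30a-1. The part of these markers in the protease results was not tested. In RNA of whole seeds, more cells of a type and more RNA per cell cannot be told apart.

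Alpha VPE (AT2G25940, chromosome 2 from 11063301 to 11066184) was near the lower end of what was measured. It had 25, 38 and 33 counts in the wild type, and 66, 61 and 59 in the mutant. The genotypes did not overlap. The level rose from 0.408 ± 0.0772 to 0.775 ± 0.0166 CPM, a log2 fold change of 0.92 (edgeR, SE 0.178, adjusted p = 0.00239). Its difference from the change of beta VPE was not tested. The span of alpha VPE overlaps that of AT2G25930, but no 36-base word of its transcript occurs in that gene.

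Gamma VPE (AT4G32940, chromosome 4 from 15900270 to 15903523), a vegetative enzyme also known from cell death, had 28.1, 29.8 and 26.9 CPM in the wild type. It had 27.1, 27.4 and 28.3 CPM in the mutant. The libraries overlapped, and the edgeR estimate was -0.03 on the log2 scale (SE 0.0521, adjusted p = 0.653).

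Delta VPE (AT3G20210, chromosome 3 from 7052347 to 7054743) is known from the seed coat. Of the seed coat markers, BAN and TT10 were at 0 here. MUM4, which shares 56.36% of its 36-base words with other genes, had 1558 to 1930 counts. The tissue source of delta VPE was not tested. Its level was 192, 216 and 185 CPM in the wild type, and 167, 188 and 193 CPM in the mutant. The genotypes overlapped (edgeR log2 fold change -0.11 with SE 0.0723, adjusted p = 0.237). Of its 36-base words, 10.76% also belong to the overlapping locus AT3G03955, so some of its reads could come from that locus.

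The make-up of the VPE transcripts differed between the genotypes. Shares were taken from RPKM (counts per kilobase of the longest RefSeq transcript and per 1000000 counts of the library), so that genes of different length can be set side by side. Beta VPE held 51.4%, 48.7% and 52.4% of the summed VPE level in the wild type, and 70.04%, 68.5% and 67.4% in the mutant. The genotypes did not overlap, and the share was higher by 17.8 percentage points in scl30a-1. The exact two-sided permutation test gave p = 0.1, which is the smallest value that 3 against 3 libraries allow. The delta VPE share was 42.4% to 45.9% in the wild type and 26.3% to 28.96% in scl30a-1. The gamma VPE share was 5.07% to 5.21% and 3.36% to 3.50%, and the alpha VPE share was at most 0.119% in any library. Shares are parts of a whole, so a rise of beta VPE alone lowers the delta and gamma VPE shares. The levels of delta and gamma VPE were not called (edgeR log2 fold changes -0.11 and -0.03, adjusted p = 0.237 and 0.653). The share of beta VPE is thus no evidence apart from the call of that gene.

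**Figure D2:**
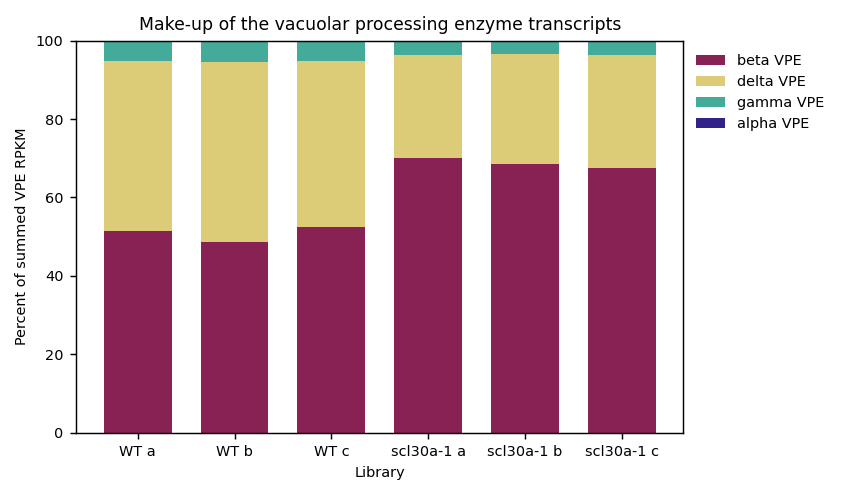
Percent of the summed VPE RPKM held by each of the 4 vacuolar processing enzymes, 1 stacked bar per library. Beta VPE takes 48.7% to 52.4% in the wild type and 67.4% to 70.04% in scl30a-1, while the alpha VPE share is too small to be seen.

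Of the 5 papain-like cysteine proteases among the 10, RD21A, RD19A and AALP fell, CP1 was not called and CEP1 rose. RD21A (AT1G47128, chromosome 1 from 17282749 to 17285749), a protease with a granulin domain that is induced by drought, had 402, 419 and 355 CPM in the wild type. It had 289, 336 and 319 CPM in the mutant, all below the lowest wild-type library. The mean fell from 392 ± 33.5 to 314 ± 23.9 CPM (edgeR log2 fold change -0.32 with SE 0.0757, adjusted p = 0.00755).

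RD19A (AT4G39090, chromosome 4 from 18215542 to 18217616), another drought-induced cysteine protease, had 398, 411 and 351 CPM in the wild type. Its level was 265, 324 and 289.9 CPM in the mutant, again without overlap. The mean fell from 387 ± 31.4 to 293 ± 29.8 CPM (edgeR log2 fold change -0.40 with SE 0.0823, adjusted p = 0.00338). In RD21A, RD19A, AALP, CP1 and ASPG1 alike, library c was the lowest of the wild type and library b the highest of scl30a-1. Wild-type library c also had the highest TMM factor of all libraries (1.03), and scl30a-1 library b the lowest (0.956). The part of the scaling in this pattern was not tested.

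AALP (AT5G60360, chromosome 5 from 24279660 to 24282482), the aleurain-like protease used as a marker of the lytic vacuole, had 77.0, 78.3 and 72.6 CPM in the wild type. It had 65.3, 73.0 and 65.9 CPM in the mutant, so scl30a-1 library b lay above wild-type library c. The edgeR estimate was -0.16 on the log2 scale (SE 0.0561, adjusted p = 0.0451). The call was lost when wild-type library a (adjusted p = 0.117) or b (0.157), or scl30a-1 library a (0.159) or c (0.122), was left out of the edgeR fit.

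CP1 (AT4G36880, chromosome 4 from 17374454 to 17376279) was by far the most abundant of the 10. Its level was 3254, 3328 and 3107 CPM in the wild type, and 3030.2, 3116 and 3059.8 CPM in the mutant. Wild-type library c lay below scl30a-1 library b, so the genotypes overlapped in CPM, whereas in RPKM they did not (2182 to 2285 and 2029 to 2078). The edgeR estimate was -0.07 on the log2 scale (SE 0.0590, adjusted p = 0.347). Without composition scaling it was -0.12 and the gene was called lower (edgeR adjusted p = 0.0418).

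CEP1 (AT5G50260, chromosome 5 from 20455317 to 20457068), a cysteine endopeptidase with a KDEL tail that is known from dying cells such as the tapetum, was the rarest. It had 5, 8 and 11 counts in the wild type, and 22, 17 and 26 in the mutant. This corresponds to 0.0700, 0.104 and 0.127 CPM in the wild type and to 0.257, 0.221 and 0.335 CPM in the mutant, without overlap. The edgeR estimate was 1.40 on the log2 scale (SE 0.323, adjusted p = 0.00613), and its SE was the largest of the 10. CEP1 was tested only because its scl30a-1 libraries passed the filter on low counts, which favoured a call of higher.

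ASPG1 (AT3G18490, chromosome 3 from 6348628 to 6350832, a gene with a single exon) encodes an aspartic protease named for guard cells. It had 1155, 1235 and 1118 CPM in the wild type, and 1381, 1623 and 1482 CPM in the mutant. All scl30a-1 libraries were above all wild-type libraries. The mean rose from 1169 ± 59.5 to 1496 ± 122 CPM (edgeR log2 fold change 0.35 with SE 0.0716, adjusted p = 0.00309).

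**Figure D3:**
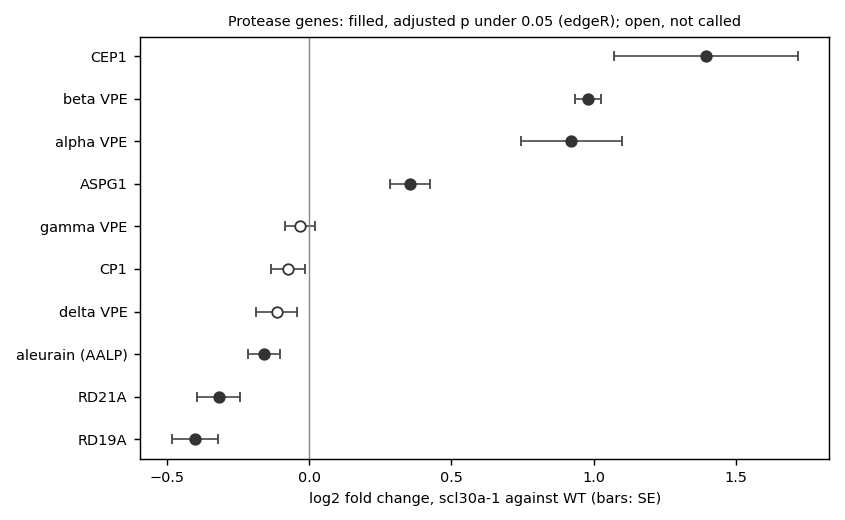
Log2 fold change of each protease gene in scl30a-1 against the wild type, with its SE as a bar. Filled points were called by edgeR and open points were not. The values run from -0.40 for RD19A to 1.40 for CEP1, and beta VPE has a far smaller SE than alpha VPE at nearly the same fold change.

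Levels of different genes were compared per length, in RPKM. In the wild type the order was CP1 (2236 ± 52.0 RPKM), ASPG1 (539 ± 22.4), RD19A (234 ± 16.3), RD21A (207 ± 15.3), beta VPE (132 ± 1.65), delta VPE (114 ± 8.41), AALP (43.1 ± 1.18), gamma VPE (13.4 ± 0.561), alpha VPE (0.231 ± 0.0422) and CEP1 (0.0646 ± 0.0190). Of neighbours in this order, RD19A and RD21A overlapped between libraries, and no other pair did. In scl30a-1 beta VPE (253 ± 2.44 RPKM) stood above RD19A (171 ± 13.5) and RD21A (161 ± 9.40), which again overlapped each other. The order of the other 7 was as in the wild type. By mean RPKM among 31772 genes, CP1 ranked 6 in the wild type and 7 in scl30a-1, and ASPG1 ranked 139 and 103. Beta VPE ranked 692 in the wild type and 358 in scl30a-1.

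CP1 made up 62.9% to 64.01% of the summed RPKM of the 10 proteases in the wild type and 58.2% to 60.8% in scl30a-1. The sum itself was 3408 to 3630.4 RPKM in the wild type and 3392 to 3501 RPKM in scl30a-1, and these ranges overlapped. RPKM are scaled by library totals alone, with no composition scaling.

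**Figure D4:**
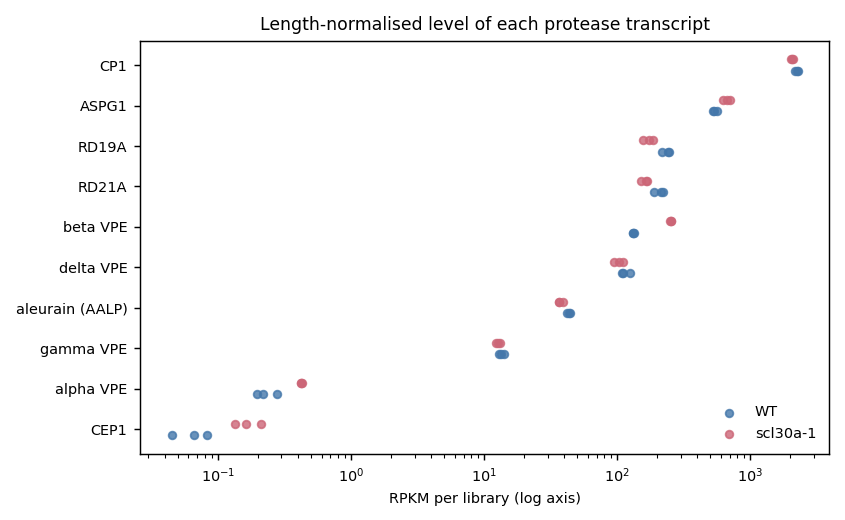
RPKM of the 10 protease transcripts on a log axis, 1 point per library, ordered by the wild-type mean. CP1 lies at 2029 to 2285 RPKM, and CEP1 and alpha VPE lie below 1 RPKM. Gamma and delta VPE overlap between the genotypes in RPKM, and the other genes plotted do not.

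The 5 genes whose pattern over the 6 libraries was closest to that of beta VPE were found among 16860 genes averaging 50 or more counts. Likeness was the Euclidean distance of log2 CPM after centring each gene on its own mean. They were YDK1 (AT4G37390, distance 0.0824), AT5G07360 (0.0848), AT1G78070 (0.0926), THH1 (AT1G14530, 0.0932) and UGP2 (AT5G17310, 0.103). RefSeq annotates them as an auxin-responsive GH3 family protein, an amidase family protein, a WD40 repeat-like protein, a tobamovirus multiplication-like protein and a UDP-glucose pyrophosphorylase. Among the proteases ASPG1 was nearest, at a distance of 0.787 and rank 1471, and gamma VPE ranked 9225. Alpha VPE and CEP1 were below the count limit of this comparison.

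Wider families of proteases, inhibitors, sorting genes and carriers, and the storage proteins, were counted by list. Each count is to be read against the 41.7% of all genes tested that were called (21.9% higher and 19.7% lower). Of 26 further papain-like cysteine proteases, 17 had enough counts, and 10 of these were called, 4 higher and 6 lower in scl30a-1 (median log2 fold change -0.06). AT4G11310, annotated as a papain family cysteine protease, rose from 18.4 ± 1.58 to 72.8 ± 3.38 CPM (edgeR log2 fold change 1.98 with SE 0.0665, adjusted p = 1.7e-08). Of its 36-base words, 3.51% are shared with AT4G11320. AT3G54940, also annotated as a papain family cysteine protease, rose from 167 ± 11.5 to 446 ± 57.5 CPM (edgeR log2 fold change 1.42 with SE 0.0899, adjusted p = 1.22e-06). RD21B (AT5G43060), annotated like RD21A as a granulin repeat cysteine protease, fell from 109.6 ± 6.40 to 75.9 ± 3.94 CPM (edgeR log2 fold change -0.53 with SE 0.0584, adjusted p = 6.87e-05). AT1G29090, annotated as a cysteine proteinase superfamily protein, had a log2 fold change of -1.15 (edgeR adjusted p = 8.12e-05). The senescence protease SAG12 and the CEP1 relative CEP2 had a count of 0 in all libraries.

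Of 8 further aspartic proteases and vacuolar carboxypeptidases, 5 were tested and 4 were called, all higher (median log2 fold change 0.23), against 41.7% of all genes tested. The split was 2 higher and 1 lower with upper-quartile scaling or without composition scaling, and 3 higher and 1 lower with DESeq2. The vacuolar aspartic protease APA2 (AT1G62290) rose by 0.72 on the log2 scale (SE 0.0804, edgeR adjusted p = 7.7e-05), and APA1 (AT1G11910) by 0.39 (SE 0.0624, edgeR adjusted p = 0.000737). PCS1 (0.23, edgeR adjusted p = 0.0346) and the carboxypeptidase SCPL49 (0.17, edgeR adjusted p = 0.0468) were close to the threshold. The count fell to 2 when wild-type library a or b was left out. SCPL49 lost its call in 9 of 14 alternative fits and PCS1 in 6 of 14. Among these, SCPL49 lost its call with DESeq2 size factors (adjusted p = 0.0575), and PCS1 and SCPL49 lost theirs without composition scaling (0.11 and 0.0975).

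Protease inhibitors were tested for 8 of 10 listed genes, together with the protein disulfide isomerase PDIL1-1, a partner of RD21A. Of these 9, 5 were called, all higher (median log2 fold change 0.40), against 41.7% of all genes tested that were called and 21.9% that were higher. Cystatins, which block papain-like proteases, led this list. CYS6 (AT3G12490) rose from 83.3 ± 5.20 to 156 ± 7.88 CPM (edgeR log2 fold change 0.90 with SE 0.0597, adjusted p = 1.74e-06). CYS2 (AT2G31980) rose from 92.8 ± 8.07 to 174 ± 17.0 CPM (edgeR log2 fold change 0.91 with SE 0.0815, adjusted p = 1.6e-05). CYS3 (log2 fold change 1.13) and CYS7 (0.64) were also called higher. The other cystatins tested were not called, with log2 fold changes of 0.22 for CYS1, 0.28 for CYS5 and -0.11 for CYS4 (edgeR adjusted p = 0.0569, 0.133 and 0.436). Without scl30a-1 library c, 8 genes of the list were called, out of 10 that then passed the filter.

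The storage proteins that the VPEs act on moved much further than the VPEs. All 9 cruciferin and 2S albumin genes were called higher, with log2 fold changes from 2.37 to 4.18 (median 3.02), against 0.98 for beta VPE. The cruciferin CRC (AT4G28520) rose by 3.02 (SE 0.0966, edgeR adjusted p = 1.32e-08) and the albumin SESA5 (AT5G54740) by 3.47 (SE 0.110, edgeR adjusted p = 1.29e-08). These genes were already known to be higher in these libraries when the list was made.

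Of 19 genes listed for sorting cargo to the vacuole, 14 were tested and 4 were called, all higher (median log2 fold change 0.08), against 41.7% of all genes tested. With upper-quartile scaling, or without composition scaling, 3 were called higher and 2 lower. The largest of the 4 changes was that of VSR1 (AT3G52850), the main sorting receptor for storage proteins, at 0.28 (SE 0.0454, edgeR adjusted p = 0.000801). The others were the retromer subunit genes VPS35A (0.23), VPS35B (0.25) and VPS26A (0.21). VPS26A lost its call in 5 of 14 alternative fits, among them the one without composition scaling (adjusted p = 0.0895). VSR3 and VSR4 share 22.92% and 26.83% of their 36-base words with other genes.

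Among 11 aminopeptidases and carriers of peptides or amino acids, 9 were tested and 4 were called, all higher (median log2 fold change 0.23), near the 41.7% of all genes tested. With upper-quartile scaling, or without composition scaling, 4 were called higher and 1 lower. The peptide transporter gene PTR1 (AT3G54140) rose from 16.6 ± 0.864 to 32.6 ± 2.26 CPM (edgeR log2 fold change 0.97 with SE 0.0638, adjusted p = 1.62e-06). The amino acid transporter gene LHT1 (AT5G40780) rose by 0.56 (SE 0.0566, edgeR adjusted p = 3.99e-05). The leucyl aminopeptidase genes LAP1 and LAP2 rose by 0.23 and 0.24.

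**Figure D5:**
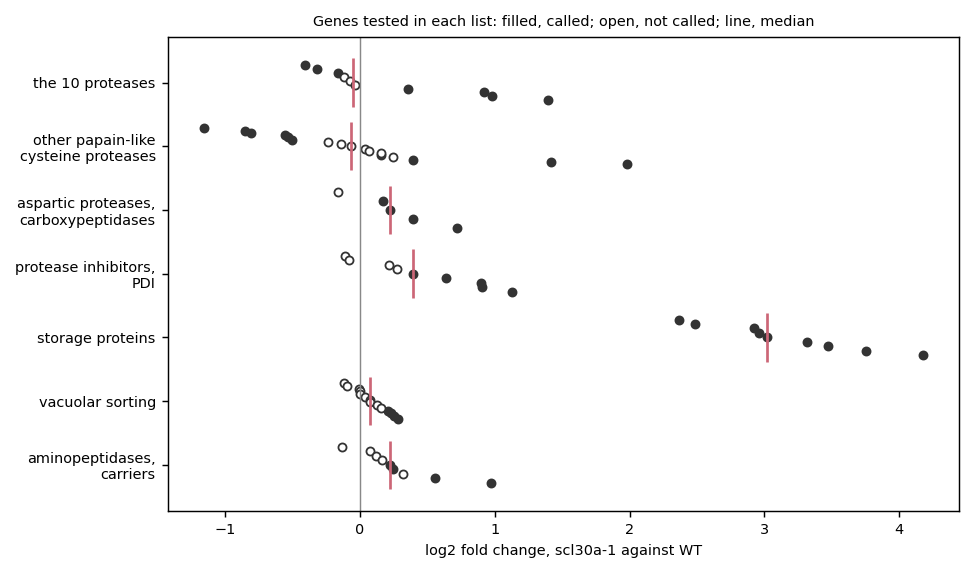
Log2 fold change in scl30a-1 against the wild type for every tested gene of the 10 proteases and of 6 related lists. Filled points were called by edgeR, open points were not, and vertical lines are medians. The storage protein genes lie between 2.37 and 4.18, apart from all other lists, and the 10 proteases spread on both sides of 0.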

How the data were processed

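Poly(A) RNA of 3 wild-type and 3 scl30a-1 libraries was compared. The table deposited by the authors holds unnormalized counts for each gene, per the file headers. The genome build was TAIR10, per the submitters' processing notes. The aligner, counter, strand use and filters are not given in the sources used here. Columns name the genotype and a letter and were assigned to a genotype only. For that reason the deposited length-normalized columns were not used, and RPKM were computed here from the counts, the library totals and the longest RefSeq transcript (31772 loci), a departure from the plan, which named the deposited values. No column of another sample was found (0).

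Counts were tested with edgeR 4.0.16 in R 4.3.3 (glmQLFit and glmQLFTest, genotype only, TMM, filterByExpr with a minimum count of 10, Benjamini-Hochberg adjustment). This kept 18736 of 32389 genes with values, and 1213 loci had none. SE was taken as the fitted coefficient over the root of its F statistic, and SD is over 3 libraries. The fits were tested on simulated data with 200 changed genes, as many up as down. With 41.7% of genes called here, that setting cannot show how well the scaling works. Floors cover counting error only, whereas SE and SD include differences between libraries. A permutation of 3 against 3 libraries cannot give a two-sided p below 0.1.

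All 10 proteases are named, with at most 4 called genes of smallest p in each list. Other genes named (SAG12, CEP2, VSR3, VSR4, MUM4 and further list members) were chosen after their values were seen. The members and lists were chosen with earlier results of these data known. Coordinates, exons and upstream windows are from RefSeq TAIR10.1, in which 32835 of 33602 loci were found. Words of 36 bases of the longest transcript were searched on both strands in all annotated transcripts. Alternatives were DESeq2 1.42.0, limma 3.58.1 (voom), other scalings and filters, each library left out, and a block on column letter.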

Additional observations from a re-analysis of the deposited data

How the results depend on the processing

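The columns carry letters and not the replicate numbers of the labels, and nothing in the labels says that a letter pairs libraries. Deviations from the genotype means correlated at -0.08, 0.24 and 0.25 for letters a, b and c across 18736 genes, and wild-type library a correlated best with scl30a-1 library b, so the letters were not taken as pairs. A replicate block on the letter, added after seeing the data, called 8940 genes and 7 of the 10 proteases. The planned limma fits on deposited length-normalized values were not run, since those columns were not used. The 7 calls among the 10 proteases were 6 to 7 with each library left out and 7 under every other fit except no composition scaling, which added CP1 (log2 fold change -0.12). A fold change of at least 1.5 left 3 of them (beta VPE, alpha VPE and CEP1) and 2291 genes in all, and an adjusted p under 0.01 left 6 and 5008, by construction. Called genes numbered 7806, from 7533 to 8219 over the other fits without a block and from 5825 (without wild-type library b) to 8075 with each library left out. AALP ranged from -0.21 to -0.13 with each library left out and lost its call in 4 of these 6 fits. Gamma VPE, never called, ranged from -0.080 to 0.0078 with each library left out, and was above 0 only without wild-type library b. The cause was not tested. The beta VPE share differed by 16.7 to 18.6 percentage points with each library left out and by 17.8 from counts.

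With a fold change of at least 1.5, called genes numbered 5 among the papain-like proteases, 1 among the aspartic proteases and carboxypeptidases, 0 among the sorting genes, 1 among the carriers and 1 each among the endosperm and embryo markers. An adjusted p under 0.01 left 2 aspartic proteases and carboxypeptidases. With each library left out, the latter ranged from 2 to 4 and the inhibitors from 5 to 8. Of 490 values for 35 other named genes, 20 changed their side of the threshold and 0 their direction. CEP1 had 5 to 26 counts and the largest SE of the 10 proteases.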
